A study of Caenorhabditis elegans with 2 samples.

Results

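A set of 30 neuronal and synaptic genes was examined for peaks of the nuclear hormone receptor NHR-129, out of 19973 protein-coding genes on the 6 nuclear chromosomes of Caenorhabditis elegans. The genes were listed by name, and all 30 were found in the annotation. Of these, 19 are broad neuronal genes, active in most or all neurons, and 11 mark particular kinds of neuron or, in the case of ida-1, a peptidergic subset. Chromatin immunoprecipitation and sequencing was carried out on whole L2 larvae of both sexes from strain OP339, whose genotype is unc-119(ed3) III with the transgene wgIs339, an insertion for nhr-129 whose product the labels call eGFP-nhr-129. There was 1 group of 2 biological replicates, and both carry the unc-119 allele and the transgene. No untagged strain stands beside them, the control library was not analysed here, and no condition could be set against another. The sources used here give no read depth and no culture details. In whole animals, strong binding in few cells and weak binding in many cells cannot be told apart, and peaks near neuronal genes need not come from neurons.

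Neurons release classical transmitters from small synaptic vesicles and neuropeptides from dense-core vesicles. Dense-core vesicles and the precursors of synaptic vesicles are made in the cell body and carried along the axon by kinesin motors. Both kinds of vesicle are fused with the plasma membrane by SNARE proteins under the control of priming factors. Every neuron needs this shared machinery, whereas the enzymes and transporters for acetylcholine, GABA, glutamate, dopamine and serotonin are each restricted to certain neurons. In C. elegans, homeodomain proteins of the CUT family are known regulators of the shared set, and terminal selectors such as UNC-86 and MEC-3 act on genes of particular neurons. NHR-129 is one of the many nuclear hormone receptors of this nematode.

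The DNA under the summits at these genes is shown first, because the peaks differ in the short motifs they hold. Each window holds 201 bp of the WBcel235 genome (ce11), 100 bp on either side of the summit, read 5′ to 3′ on the strand of the gene. The window at egl-21 ends at the annotated gene start and holds 162 bp. The summit is base 101 of each. The windows are those of 6 of the 7 members with a promoter summit, followed by the strongest summit 1 to 2 kb upstream (egl-3) and the strongest intronic one (rab-3), both chosen after their values were seen. Capitals mark AGGTCA, the core site of many nuclear receptors, ATCGAT, the core bound by CUT homeodomain proteins, and GAGAGA, each on either strand, so that TGACCT and TCTCTC count too.
snb-1 (chrV:6656764-6656964, minus strand): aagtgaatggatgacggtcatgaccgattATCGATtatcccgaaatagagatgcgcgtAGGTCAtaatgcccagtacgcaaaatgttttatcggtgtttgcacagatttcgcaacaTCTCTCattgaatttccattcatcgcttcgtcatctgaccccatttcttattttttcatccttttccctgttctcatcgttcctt
egl-21 (chrIV:10481845-10482006, minus strand): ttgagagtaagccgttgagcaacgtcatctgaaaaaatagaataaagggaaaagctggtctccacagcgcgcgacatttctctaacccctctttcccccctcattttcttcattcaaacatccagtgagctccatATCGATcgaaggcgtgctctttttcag
unc-18 (chrX:7682496-7682696, plus strand): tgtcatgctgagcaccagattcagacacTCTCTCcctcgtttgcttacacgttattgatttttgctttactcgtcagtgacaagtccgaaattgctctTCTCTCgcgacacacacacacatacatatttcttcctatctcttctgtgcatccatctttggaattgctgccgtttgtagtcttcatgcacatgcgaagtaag
rgef-1 (chrV:9561821-9562021, minus strand): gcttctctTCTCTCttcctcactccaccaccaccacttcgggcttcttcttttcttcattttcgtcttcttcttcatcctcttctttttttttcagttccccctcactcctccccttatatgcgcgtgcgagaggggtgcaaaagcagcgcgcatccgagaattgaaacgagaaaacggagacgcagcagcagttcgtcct
ida-1 (chrIII:5755306-5755506, plus strand): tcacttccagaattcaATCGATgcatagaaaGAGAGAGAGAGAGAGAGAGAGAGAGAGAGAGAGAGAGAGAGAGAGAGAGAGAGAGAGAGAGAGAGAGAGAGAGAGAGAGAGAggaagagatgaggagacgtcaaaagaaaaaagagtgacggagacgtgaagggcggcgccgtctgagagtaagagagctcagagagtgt
sng-1 (chrX:7327071-7327271, plus strand): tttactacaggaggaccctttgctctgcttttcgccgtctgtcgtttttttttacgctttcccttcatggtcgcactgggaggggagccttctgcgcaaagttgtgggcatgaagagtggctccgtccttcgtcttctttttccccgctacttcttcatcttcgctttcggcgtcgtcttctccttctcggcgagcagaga
egl-3 (chrV:10174780-10174980, minus strand): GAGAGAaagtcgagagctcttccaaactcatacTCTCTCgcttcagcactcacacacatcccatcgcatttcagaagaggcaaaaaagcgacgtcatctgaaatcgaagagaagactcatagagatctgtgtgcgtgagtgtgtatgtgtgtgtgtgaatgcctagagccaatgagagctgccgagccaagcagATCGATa
rab-3 (chrII:5725199-5725399, minus strand): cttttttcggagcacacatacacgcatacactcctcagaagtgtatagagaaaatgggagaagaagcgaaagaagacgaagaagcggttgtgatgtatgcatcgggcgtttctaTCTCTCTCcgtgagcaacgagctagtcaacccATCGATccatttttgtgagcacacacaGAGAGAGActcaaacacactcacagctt

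Among these windows, snb-1 held 1 match to each of the 3 motifs. The ATCGAT core was also in capitals at egl-21, ida-1, egl-3 and rab-3, and the window of ida-1 held a long GA repeat. The window of sng-1 held no match to any of the 8 motifs searched, nor did that of ric-19, which is not shown. The windows shown are a chosen part, and counts over all 22 summits are given below.

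Each peak below is given with its signal value, the authors' own score per peak, whose scale the sources used here do not state, and with its rank among the 6626 peaks of the list thresholded on reproducibility, where rank 1 is the strongest. The signal of the pooled list and those of the replicate lists are on different scales and are not compared with each other. The lists of the 2 replicates are set beside each other as deposited, without scaling. Over all thresholded peaks called in both, the median log2 ratio of replicate 1 to replicate 2 was 0.31. Thresholded signals ran between 63.4 and 6467, with a median of 122.

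A thresholded summit lay in the promoter window, which reached from 1000 bp before the annotated start to 100 bp after it, at 7 of the 30 neuronal genes (23.3%), against 18.2% of all coding genes. The neuronal share is near that background. The 7 genes had a median signal of 167, against 139 over all coding genes with a promoter summit. They comprised 6 of the 19 broad neuronal genes (31.6%) and 1 of the 11 neuron-type genes (9.09%). The difference between these classes was not tested, since genes are not replicates of a condition and nothing varied between samples.

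The strongest promoter summits belonged to genes of the secretory machinery. Many of the 30 genes share that role, including some with no summit in any place. At ric-19, whose product is related to the vertebrate islet cell autoantigen and acts in dense-core vesicle maturation, the summit lay 158 bp upstream of the start with a signal of 267 (rank 1013), and the signal was 158 in replicate 1 and 106 in replicate 2. That summit also lay 270 bp upstream of the divergent coding gene pmlr-1, so it cannot be assigned to either gene. It was the only 1 of the 7 members' promoter summits shared with another coding gene, whereas the strongest promoter summit was shared at 44.6% of all coding genes that had one. These shares are not matched for spacing. The median distance to the next coding gene upstream was 3681 bp at the 30 neuronal genes, 936 bp over all coding genes and only 427 bp at ric-19.

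Next in strength was snb-1, which encodes synaptobrevin, the SNARE protein of the vesicle membrane (chromosome V, 6655562 to 6656501, minus strand). Its summit, 363 bp upstream, had a pooled signal of 242 (rank 1210), with 144 in replicate 1 and 101 in replicate 2. The gene for the carboxypeptidase that trims neuropeptide precursors, egl-21 (chromosome IV, 10478442 to 10481844, minus strand), had its summit only 62 bp upstream with a signal of 223 (rank 1393), and 105 and 122 in replicates 1 and 2. Both genes thus stood in the stronger part of the list in each replicate, in opposite orders: snb-1 was the higher in replicate 1 and egl-21 in replicate 2.

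The gene unc-18, for the syntaxin-binding protein needed for vesicle docking and fusion (chromosome X, 7682896 to 7686037, plus strand), had a summit 300 bp upstream with a signal of 167 (rank 2168), and 89.6 and 86.8 in replicates 1 and 2. The summit of rgef-1, a Ras-family guanine nucleotide exchange factor often used as a pan-neuronal marker (chromosome V, 9556027 to 9561674, minus strand), lay 247 bp upstream with a signal of 134 (rank 2926), and 69.7 and 69.2 in the same order. These replicate values differed by little, and the pooled signals of both genes lay above the median of the thresholded list.

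The remaining promoter summits were weaker. At ida-1, for a tyrosine phosphatase-like protein of the dense-core vesicle membrane (chromosome III, 5755539 to 5765816, plus strand), the summit 133 bp upstream had a signal of 99.5 (rank 4197), with 40.3 in replicate 1 and 58.6 in replicate 2. It fell in the GA repeat shown above and lay 25 bp inside a non-coding RNA gene, B0244.14. Whether reads were placed uniquely in that repeat was not tested. At sng-1, for synaptogyrin of the synaptic vesicle membrane (chromosome X, 7327601 to 7329705, plus strand), the summit 430 bp upstream had a signal of 66.4 (rank 6329), just above the lowest in the list, with 27 and 32.5 in replicates 1 and 2. It coincided with the start of a non-coding RNA gene, T08A9.16. A list of as many of replicate 1's own strongest calls left sng-1 out. The ida-1 summit was the only promoter summit among the neuron-type genes.

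**Figure D1:**
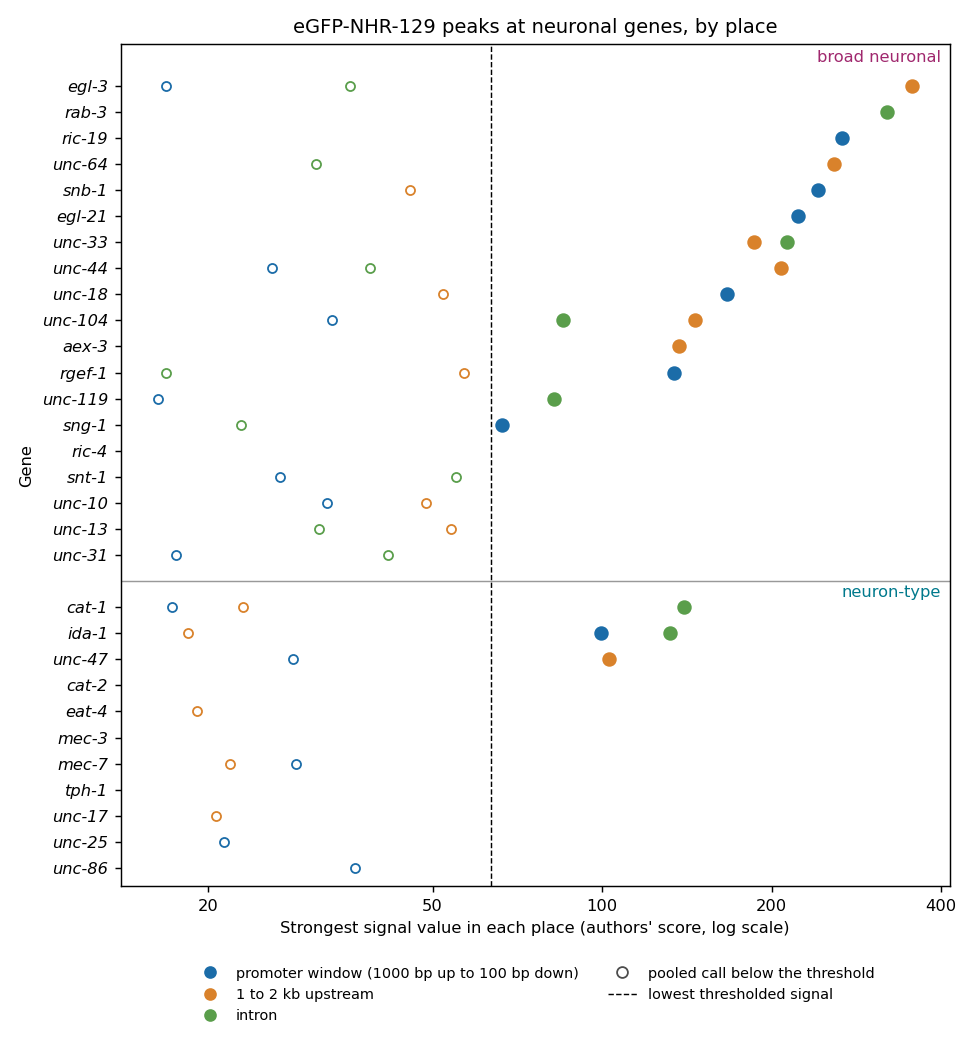
Strongest signal value (authors' score, log scale) at each of the 30 genes in the promoter window, 1 to 2 kb upstream and in introns; filled points are thresholded peaks, open points are pooled calls below the threshold, and the dashed line marks the lowest thresholded signal (63.4). Filled points reach 14 of the 19 broad neuronal genes and 3 of the 11 neuron-type genes.

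All 7 promoter summits lay within 500 bp upstream of the start, and 0 lay 501 to 1000 bp upstream. Over all coding genes, 13.6% had a summit in the nearer stretch and 4.39% in the farther one. The median distance was 247 bp at the neuronal genes and 241 bp over all coding genes with a promoter summit. In C. elegans many messenger RNAs receive a trans-spliced leader, and their annotated starts then lie at the acceptor site, downstream of where transcription began. The annotated starts of 4 members, snb-1, egl-21, snt-1 and ric-4, directly follow TTTCAG, the acceptor consensus, as do 12.3% of all coding genes, so distances at these genes are from that point.

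Farther upstream the neuronal genes were further from all coding genes by count. A thresholded summit lay 1 to 2 kb upstream at 7 of 30 (23.3%), against 7.78% of all coding genes, with a median signal of 186 against 131. These were 6 of 19 broad neuronal genes, with a median of 197, and 1 of 11 neuron-type genes. The neuronal genes also have more room upstream: no other coding gene lies in the 2 kb before the start at 21 of the 30, against 31.5% of all coding genes. Among genes with that room, a summit 1 to 2 kb upstream was found at 7 of 21 neuronal genes (33.3%) and at 9.70% of all such coding genes. All 7 genes with such a summit have that room, so their summits necessarily lay outside the bodies of coding genes.

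The strongest peak of the whole set was of this kind. At egl-3, which encodes the proprotein convertase that cleaves neuropeptide precursors (chromosome V, 10169177 to 10173753, minus strand), a summit 1127 bp upstream had a signal of 355 (rank 543), with 182 in replicate 1 and 170 in replicate 2. It also lay 191 bp upstream of a non-coding RNA gene, C51E3.12. Both peptide-processing enzymes of the set, egl-3 and egl-21, thus carried strong summits, but in different places.

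The syntaxin gene unc-64, for the SNARE of the plasma membrane (chromosome III, 13277258 to 13283887, plus strand), had a summit 1248 bp upstream with a signal of 258 (rank 1073), and 135 and 122 in replicates 1 and 2. That summit also lay 950 bp upstream of a non-coding RNA gene, F56A8.10. A summit 1058 bp upstream of aex-3, for the exchange factor that activates RAB-3, had a signal of 137 (rank 2845), and 64.6 and 66.4 in the same order. The SNARE genes snb-1 and unc-64 and the syntaxin partner gene unc-18 thus all had a summit within 2 kb of the start, and the SNARE gene ric-4 did not.

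Another 3 of these summits were at genes for axon growth and transport. The ankyrin gene unc-44, whose product organises the axonal membrane skeleton, had a summit 1280 bp upstream (signal 208, rank 1558), with 102 and 98.5 in replicates 1 and 2. That summit also lay 315 bp upstream of a non-coding RNA gene, B0350.80, and in the promoter window of another, B0350.84. For unc-33, a CRMP-type protein that acts in axon guidance and in sorting to axons and dendrites, the summit 1053 bp upstream had a signal of 186 (rank 1857), with 83.5 and 102. For unc-104, the kinesin that carries synaptic vesicle precursors, the summit 1845 bp upstream had a signal of 146 (rank 2621), with 73.7 and 74. That summit also lay 850 bp upstream of a long non-coding RNA gene, linc-73, and in the promoter window of a snoRNA gene, C15F1.15. All 3 summits exceeded the median of the thresholded list.

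The 1 neuron-type gene with such a summit was unc-47, for the vesicular GABA transporter (chromosome III, 10183762 to 10186260, minus strand). The summit lay 1823 bp upstream with a signal of 103 (rank 4032), and 61.3 in replicate 1 against 42 in replicate 2. It lay 25 bp past the start of a non-coding RNA gene, T20G5.16. This was the weakest of the 7 summits 1 to 2 kb upstream.

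**Figure D2:**
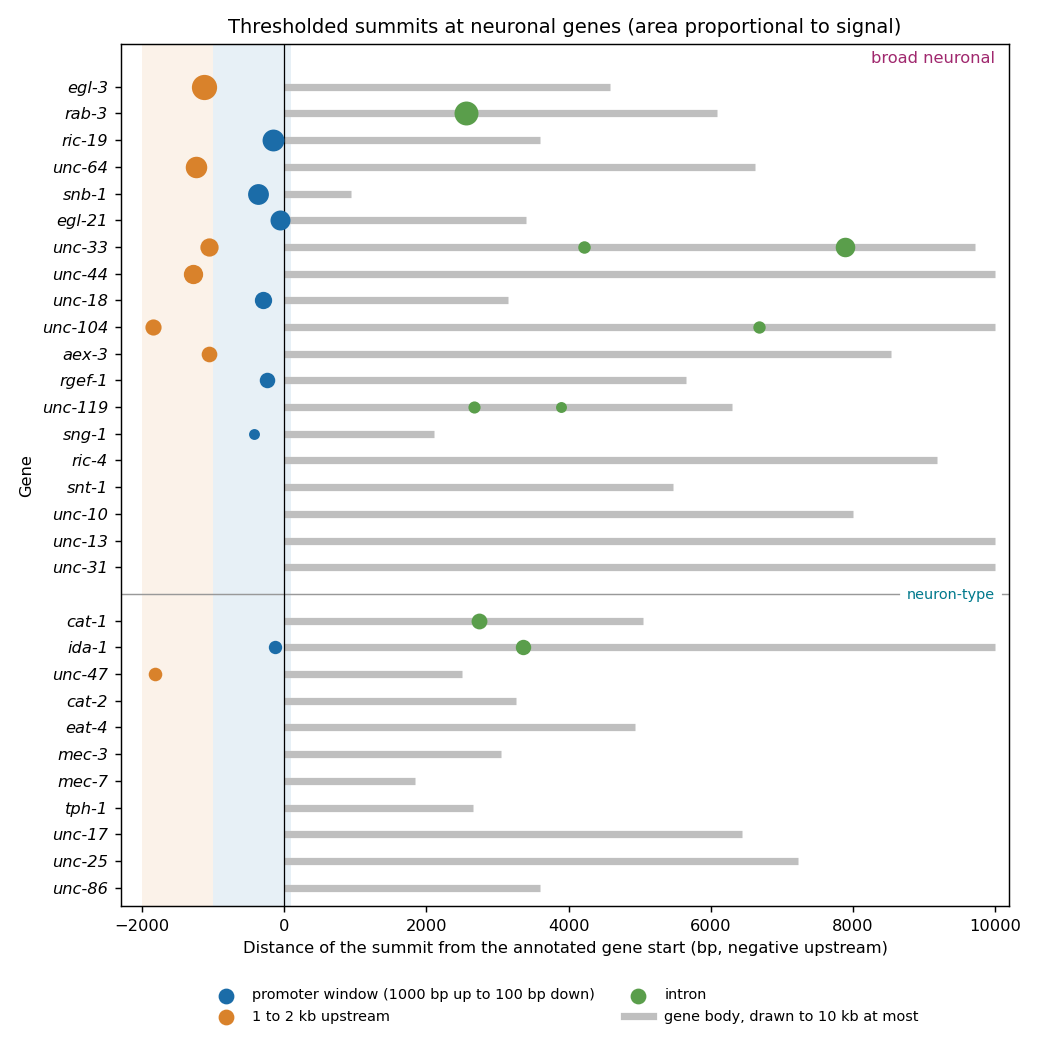
Position of each thresholded summit relative to the annotated gene start (bp, negative upstream), with marker area proportional to signal and grey bars for gene bodies, drawn to 10 kb at most. The promoter summits (blue) lie within 500 bp, the 7 summits 1 to 2 kb upstream (orange) lie between 1053 bp at unc-33 and 1845 bp at unc-104, and the intronic ones (green) lie more than 2500 bp into their genes.

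Introns of 6 neuronal genes held a thresholded summit, or 6 of 30, against 5.45% of all coding genes. Neuronal genes have long introns, with a median of 3623 bp in the broad class and 2139 bp in the neuron-type class, against 722 bp over all coding genes. Among genes with at least 2000 bp of intron a summit was found in an intron at 6 of 21 neuronal genes (28.6%), against 17.9% of all such coding genes. Per 10 kb of intron there were 0.619 summits at the neuronal genes (0.606 in the broad class and 0.664 in the neuron-type class) and 0.503 over all coding genes. The classes therefore differed little in this place.

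The intronic summit of rab-3, for the small GTPase of synaptic vesicles (chromosome II, 5721767 to 5727853, minus strand), was the strongest of them and the second strongest of the set. It lay 2554 bp into the gene and 569 bp upstream of an internal transcript start, with a signal of 320 (rank 704), and 140 in replicate 1 and 178 in replicate 2. Counting every annotated transcript start, it is a promoter summit. The other gene moved into the promoter count in that way was unc-119, for a lipid-binding chaperone of trafficked proteins and itself a common pan-neuronal marker. The introns of unc-119 held a summit of signal 82.3 (47.3 and 34.3 in replicates 1 and 2) and another of 66.7 (38.6 and 28.2), the second 74 bp past an internal start. The strain carries the ed3 allele of unc-119, and whether the transgene adds reads from this gene was not tested. Of the 8 intronic summits at neuronal genes, these were the 2 near an internal start, against 27.7% over all coding genes.

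The other intronic summits were at unc-33, cat-1, unc-104 and ida-1. In unc-33 the stronger of 2 intronic summits (signal 213, rank 1501, and ranks 1851 and 1327 in the lists of replicates 1 and 2) lay 46 bp upstream of a transfer RNA gene. The weaker had a signal of 87.2 and lay 853 bp upstream of a non-coding RNA gene, M57.3. In cat-1, for the vesicular monoamine transporter, the summit (signal 140, rank 2773, with 77.1 and 64) lay 33 bp upstream of a transfer RNA gene. These were the only 2 of the 22 summits at neuronal genes (9.09%) within 200 bp of a small RNA gene, near the 5.96% of all thresholded summits. The intronic summit of unc-104 (signal 85.3) lay 35 bp inside a pseudogene. At ida-1 the intronic summit (signal 132, rank 2980, with 79.7 and 58.4) had no such neighbour and was stronger than the gene's promoter summit in the pooled list. What transcription unit any of these peaks serves was not tested.

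Counting all 3 places, 17 of the 30 genes (56.7%) had at least 1 thresholded summit, against 27% of all coding genes. By class these were 14 of 19 broad neuronal genes (73.7%) and 3 of 11 neuron-type genes (27.3%), the second near the background. Genes with more room had more summits, and the any-place share was 37.9% among coding genes with both 2000 bp of intron and a free 2 kb upstream. Among the neuronal genes with both, it was 9 of 16 (56.2%), made up of 7 of 12 in the broad class and 2 of 4 in the neuron-type class. Within genes of that build, therefore, the classes gave similar counts from few genes.

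**Figure D3:**
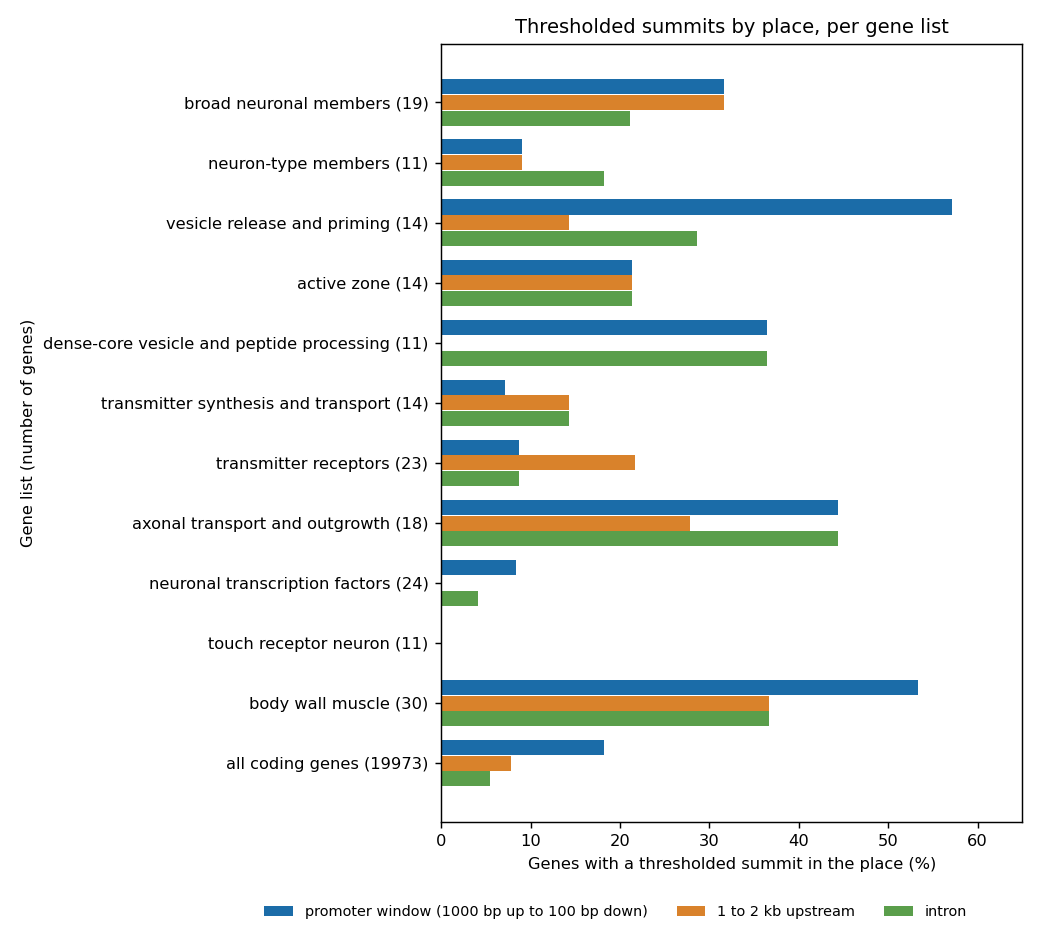
Share of genes (%) with a thresholded summit in the promoter window, 1 to 2 kb upstream and in introns, for the broad and neuron-type members, 8 lists of other neuronal genes, body wall muscle genes and all coding genes, with the number of genes in brackets. The touch receptor neuron list has no bars, since 0 of its 11 genes had a summit in any place.

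No thresholded summit fell in any place at 13 genes. The 5 broad neuronal ones were unc-31, for the priming factor of dense-core vesicles, snt-1, for synaptotagmin, ric-4, for the SNAP-type SNARE, unc-13, for the priming factor of synaptic vesicles, and unc-10, for the active zone scaffold RIM. Of these, 4 had a summit farther out in their own upstream space. It lay 2290 bp upstream at unc-31 (signal 147, with 66.2 and 81.5 in replicates 1 and 2), 2223 bp at snt-1 (rank 4007, with 56.7 and 42.7), 3639 bp at ric-4 (191, with 83.0 and 107) and 4513 bp at unc-10 (166, with 62.6 and 107). At unc-13 the nearest summit was 37451 bp away, inside another gene.

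A wider limit was therefore added after seeing the data, taking any summit within 5 kb upstream with no coding gene between. With it, 22 of 30 neuronal genes (73.3%) had a summit, against 29.4% of all coding genes. The broad class reached 18 of 19 genes, with unc-13 the exception, and the neuron-type class 4 of 11. Among genes with both long introns and free upstream space, the counts were 14 of 16 neuronal genes and 46.2% of all such coding genes. Because the limit was picked from the positions of these very summits, its counts are a description of them. The median distance from the start to the nearest thresholded summit in either direction was 1248 bp in the broad class and 3101 bp in the neuron-type class, against 6334 bp over all coding genes.

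The 8 neuron-type genes without a summit were unc-17, for the vesicular acetylcholine transporter, unc-25, for the enzyme that makes GABA, eat-4, for the vesicular glutamate transporter, cat-2, for the tyrosine hydroxylase of dopamine neurons, tph-1, for the tryptophan hydroxylase of serotonin neurons, the transcription factor genes unc-86 and mec-3, and mec-7, for a tubulin of touch receptor neurons. At eat-4 a weak summit lay 3101 bp upstream (rank 6006, with 31.8 and 39.6 in replicates 1 and 2). The strongest peak near any of them, signal 478 (rank 290), lay 2460 bp upstream of cat-2 but inside an intron of the neighbouring gene scc-2. The nearest summit to mec-7, 2630 bp away, was in an intron of deg-1, that to unc-17, 11907 bp away, was in the promoter window of madf-9, and that to mec-3, 20039 bp away, was the promoter summit of egl-21. At unc-25 and tph-1 the nearest lay 10660 and 5705 bp from the start, and at unc-86 it lay 4573 bp downstream of the start, past the end of the gene.

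Weaker calls were present at most of these genes. The pooled relaxed list, with 30000 calls down to a signal of 15.6, had a call in the promoter window at 13 of 19 broad neuronal genes and 6 of 11 neuron-type genes, against 38.6% of all coding genes. No call of any strength fell in any place at 4 genes, ric-4, cat-2, tph-1 and mec-3. Of all coding genes, 56% had such a call in at least 1 place. At unc-86 the promoter call had a pooled signal of 36.4 and entered the list of replicate 2's own strongest calls (32.3, rank 6043) but not that of replicate 1. The calls nearest below the threshold were in the introns of ida-1 (60.2) and snt-1 (55) and upstream of rgef-1 (56.8), against 66.4 at sng-1 and 66.7 at unc-119 just above it.

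The replicates gave close signals at the neuronal genes. All 22 thresholded summits in the 3 places overlapped a call in both replicates, and 20 were among the strongest calls of each replicate's own list, as were 82.2% of all thresholded peaks. The log2 ratio of replicate 1 to replicate 2 had a median of 0.05 over the 22 summits (SD 0.33), with a range between -0.54 at ida-1 and 0.58 at ric-19, and a median of 0.31 over all thresholded peaks called in both (SD 0.49). Signal was higher in replicate 1 at 13 summits and in replicate 2 at 9. These counts use unscaled signals, and equal signal is not the centre of all thresholded peaks. Across the 22 summits the ranks in both replicates gave a Spearman rho of 0.92. This describes the list only, since the summits share both libraries and had to be reproducible to enter it.

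**Figure D4:**
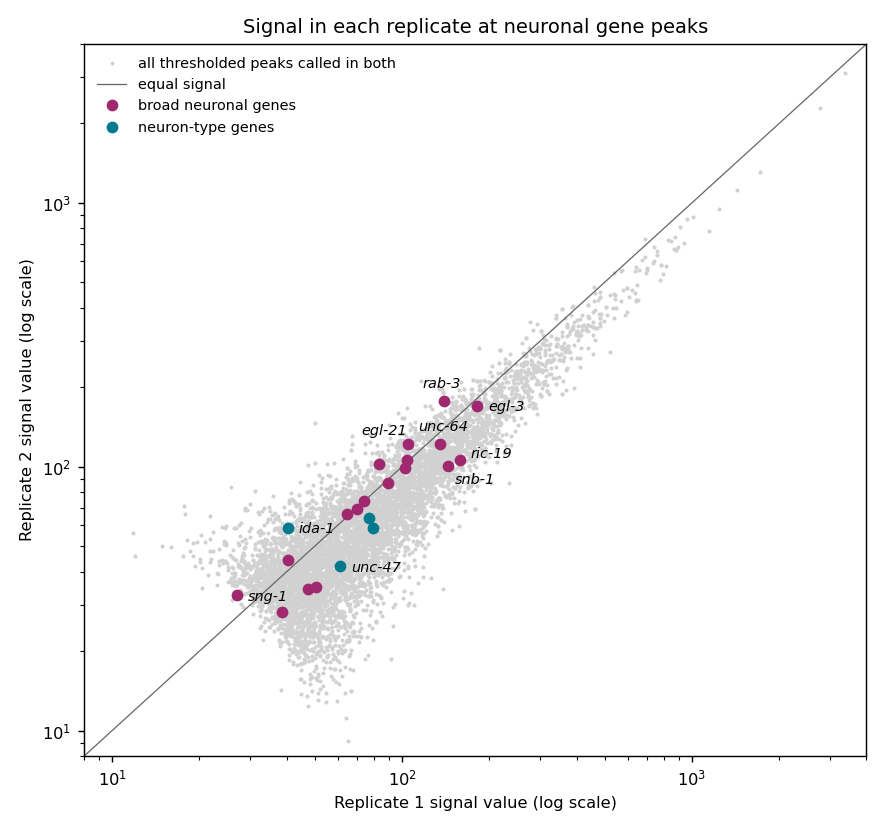
Signal value in replicate 1 (x axis) and replicate 2 (y axis), both log scales, at the 22 summits of neuronal genes in colour and at the 6593 thresholded peaks called in both replicates in grey. The coloured points lie along the line of equal signal, from sng-1 (27 and 32.5) to egl-3 (182 and 170).

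In strength the peaks at neuronal genes were near the middle of the list. Their median pooled signal was 143, against 122 over all thresholded peaks, and 15 of 22 lay above that median. Only 2 were among the strongest 1000, which hold 15.1% of all peaks. The 18 summits of the broad class had a median of 177 and ran between 66.4 and 355, and the 4 of the neuron-type class had a median of 118 and ran between 99.5 and 140. The range of the broad class holds that of the neuron-type class.

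Other neuronal genes were taken from 8 lists of 129 genes that exclude the 30. Over all of them, 28 genes (21.7%) had a promoter summit, near the 18.2% of all coding genes, and 55 (42.6%) a summit in any place, against 27% of all coding genes. Among those with both 2000 bp of intron and a free 2 kb upstream, 28 of 66 had a summit in any place. All coding genes of that build gave 37.9%, so the other neuronal genes were near it. No list was tested. Vesicle release and priming genes had a promoter summit at 8 of 14 (57.1%), led by rbg-1, for a subunit of the GTPase-activating complex for RAB-3 (signal 368), and nsf-1, for the ATPase that takes SNARE complexes apart (298). Axonal transport and outgrowth genes had one at 8 of 18 (44.4%), led by unc-14, for a RUN domain protein of axonal transport (525), unc-76, for a kinesin adaptor (376), unc-116, for the kinesin heavy chain (342), and unc-40, for the netrin receptor (306). Dense-core vesicle and peptide processing genes had one at 4 of 11 (36.4%), including unc-108, for the GTPase RAB-2 (360), and sbt-1, for the chaperone of the EGL-3 convertase (243). Many of these genes, such as nsf-1, unc-108 and unc-116, act in all cells and not in neurons alone.

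Active zone genes had a promoter summit at 3 of 14 (21.4%), near the share of all coding genes, with syd-2, for liprin, the strongest (382). Transmitter synthesis and transport genes had one at 1 of 14 (7.14%), snf-11, for the GABA transporter of the plasma membrane (136), and transmitter receptor genes at 2 of 23 (8.70%). Neuronal transcription factor genes had one at 2 of 24 (8.33%), ceh-38, which encodes a widely expressed CUT homeodomain protein (signal 801, rank 79), and unc-30, for the selector of GABA motor neurons (77.1). Touch receptor neuron genes had 0 of 11 in the promoter window and 0 in any place. With introns and the stretch 1 to 2 kb upstream counted too, a summit in any place was found at 57.1% of active zone, 35.7% of transmitter synthesis and transport, 34.8% of transmitter receptor and 12.5% of neuronal transcription factor genes, against 27% of all coding genes. Among genes with both 2000 bp of intron and a free 2 kb upstream, the any-place background was 37.9%. Of that build, 7 of 12 active zone and 3 of 4 transmitter synthesis and transport genes had a summit. So did 3 of 12 transmitter receptor and 2 of 15 neuronal transcription factor genes. At 1 to 2 kb upstream, transmitter receptor genes had a summit at 5 of 23 (21.7%), against 7.78% of all coding genes. With a free 2 kb upstream it was 2 of 13, against 9.70% of all such coding genes.

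Genes listed for body wall muscle, another abundant tissue of the whole animal, were counted in the same way. Whether each of them acts in muscle alone was not examined. They had a promoter summit at 16 of 30 (53.3%), against 18.2% of all coding genes, and a summit in any place at 26 of 30 (86.7%), against 27%. Among those with both 2000 bp of intron and a free 2 kb upstream, 14 of 15 had a summit in any place, against 37.9%. High any-place counts were thus not confined to neuronal genes, and in which tissue any peak arose was not tested.

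Motifs were counted in the 201 bp around each of the 22 summits, on both strands, for 8 sequences. The ATCGAT core of CUT homeodomain proteins was present at 8 summits (36.4%), against 8.80% of all thresholded summits and 8.47% of the 201 bp windows before all coding gene starts. It was found at 7 of 18 summits of the broad class, at unc-119, rab-3, snb-1, egl-3, egl-21, unc-104 and unc-33, and at 1 of 4 of the neuron-type class, the promoter summit of ida-1. The matches lay 34 to 96 bp from the summit, with rab-3 at 48 bp and egl-21 at 37 bp, and only 2 summits (9.09%) held one wholly within 50 bp, against 4.09% of all thresholded summits.

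GAGAGA was present at 15 summits (68.2%), against 44% of all thresholded summits and 16.4% of the promoter windows. The nuclear receptor site AGGTCA was found at 3 (13.6%), snb-1 and 1 intronic summit each of unc-104 and unc-33, against 7.29% and 5.98%. GATAAG was at 1, in unc-33, against 10.1% and 12.6%. The homeodomain core TAATTA was at 0 of 22, against 3.53% and 11.9%, the E-box CACGTG at 0, against 8.92% and 4.23%, TTGCGCAA, bound by C/EBP-type factors, at 0, against 0.830% and 0.335%, and the COE-type TCCCNNGGGA at 0, against 0.181% and 0.0801%. A match is a description of the letters, and no factor's binding was measured other than that of NHR-129.

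**Figure D5:**
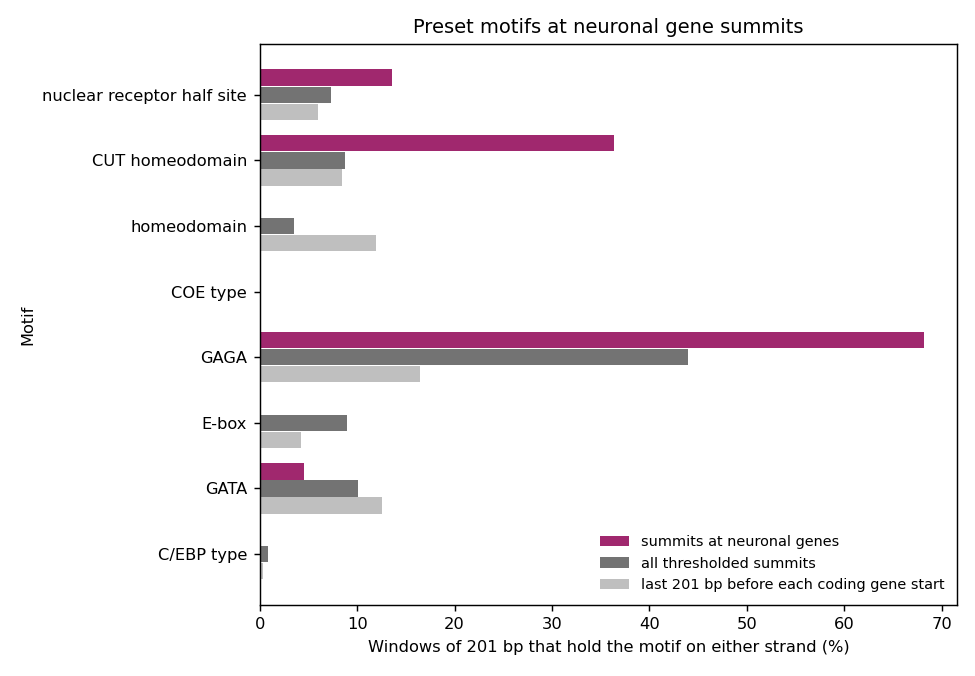
Share (%) of 201 bp windows that hold each of 8 motifs on either strand, for the 22 summits at neuronal genes, all thresholded summits and the windows before all coding gene starts. ATCGAT (CUT homeodomain) reaches 36.4% at the neuronal summits and 8.80% over all summits, and GAGAGA reaches 68.2% and 44%.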

How the data were processed

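Each replicate was an L2 whole-animal library with fragments of 150 to 350 bp, per the labels. Per the labels and the text deposited beside the files, relaxed peak lists were called against a control for each replicate and for the pooled reads, and a final list was selected on the irreproducible discovery rate. The aligner, peak caller and depth were not given in the sources used here. Hence no counting interval could be given. The signal value is a score deposited by the authors, with no scale stated. The deposited −log10 q-value was 4.15 for every thresholded peak and ordered none of them. Summit offsets were used as deposited. The ce11 lists were used with the WBcel235 annotation (Ensembl release 115), and lists in the older build were not.

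Summits were placed 1000 bp upstream to 100 bp downstream of the outermost gene start, 1 to 2 kb upstream, or in introns of any transcript. Replicate signals are those of the strongest call overlapping a pooled peak by at least 1 bp. No test was made, since there was 1 group. The placing functions were tested on simulated peaks. Python 3.11.15, numpy 2.4.6, scipy 1.17.1 and matplotlib 3.10.9 were used.

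The members and lists were chosen with earlier results of these data known. All 30 members are named, with up to 4 genes of each other list by strongest promoter summit. Of the 133 names on the other neuronal lists, 129 were found in the annotation (erp-1, rab-27, ceh-44 and mab-18 were not). Alternatives covered single replicates, other thresholds, windows, starts and overlap, the class of ida-1, and motif windows of 101 and 301 bp. The 5 kb limit and the 10-base words were added after seeing the data.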

Additional observations from a re-analysis of the deposited data

How the results depend on the processing

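Of 56 alternatives, 39 kept each count within 1.5 times, or the value within the spread between replicates. For the median promoter signal that spread was an SD of 13.6 between the medians of the single replicates. It is on the scale of the replicate lists, so for that median the tally mixes unlike scales. All calls of the pooled relaxed list gave 19 members with a promoter summit (13 broad, 6 neuron-type), 17 with one 1 to 2 kb upstream, 14 intronic and 26 in any place. That list is longer and weaker, and the median promoter signal was 32.5. Of all coding genes, 38.6% then had a promoter summit and 56% one in any place, against 19 and 26 of the 30 members. Shares of all coding genes for the other places in that list are not given here. A window of 2000 bp gave 14 of 30 members (12 of 19 broad, 2 of 11 neuron-type), because it takes in the 1 to 2 kb stretch. The share of all coding genes was then 23.8%, so the members stood farther from it than in the main window. The stronger part of the thresholded list, split at its median signal, gave a median of 223 and 0 neuron-type members, against 10.6% of all coding genes. Counting ida-1 as broad also gave 0, against 18.2%. With a single replicate the neuron-type count ran from 1 to 2, the second being unc-86 without replicate 1, and the median promoter signal from 78.0 to 97.2, on the scale of the replicate lists. Within 50 bp of the summit, AGGTCA was at 1 summit (4.55%, against 3.65% of all thresholded summits) and ATCGAT at 2 (9.09%, against 4.09%), and the cause was not tested. The relation of the neuron-type promoter share to that of all coding genes changed with the list. It was below in the main setting (1 of 11, against 18.2%) and above with all calls of the relaxed list (6 of 11, against 38.6%). Without replicate 1 the neuron-type share was near that of all coding genes (2 of 11, against 17.8%). No paired analysis was possible because there was only 1 group. Depth is unknown and each class holds few genes, so a difference of 1 or 2 genes cannot be read.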

Other observations

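Among 10-base words in the windows of the 22 summits, 25 were shared by 3 or more members, a search made after seeing the data. The rarest was CGTCATCTGA, read on either strand, at the summits of snb-1, egl-21 and egl-3. It was held by 16 of the 6626 thresholded summits (0.241%) and by 6 of the 19973 windows before coding gene starts (0.0300%). Another 12 coding genes have their starts within 2 kb downstream of such a summit. The word was picked from many, so its count is a description.

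Summits were also counted in 500 bp bins by distance from the start, without regard to other genes between. Of the 19 broad neuronal genes, 6 had a summit in the bin next to the start, and then, going upstream, 0, 5, 1, 4, 0, 0, 3, 0 and 2. Of the 11 neuron-type genes, 1 had a summit in the bin next to the start, and then 0, 0, 1, 1, 0, 1, 0, 0 and 0. Over all coding genes the share was 13.6% in the bin next to the start and between 3.22% and 4.39% in each of the others out to 5 kb. Bins with several broad neuronal genes thus stood beside bins with 0.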
